A study of Mus musculus with 18 samples.

Results

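The gene set described here holds 9 genes by which microglia, the resident macrophages of the brain, are recognised: the receptors Cx3cr1, P2ry12, Csf1r and Trem2, the surface proteins Tmem119, Ptprc and Itgam, the adaptor Tyrobp and the cytoplasmic protein Aif1. The members were given by symbol, and all 9 were found among 19938 genes on the array, each through 1 probe set. Their levels were followed in 18 mouse medulloblastomas, tumours of the cerebellum, whose RNA was hybridised to Affymetrix Gene ST 1.0 arrays, with 1 array per tumour. The labels place 10 arrays in Ptch tumours of 3 subtypes, with 4 arrays of NG-Ptch, 2 of GFD-Ptch and 4 of GFI-Ptch. The other 8 arrays are from Smo tumours, 4 labelled NG-Smo;Atoh1-CreER (NG-Smo below) and 4 labelled GFD-Smo;GFAP-cre (GFD-Smo below). The labels explain neither the subtype names nor the alleles, and give no strain, age or treatment. In the Smo tumours a subtype always came with its own Cre driver, Atoh1-CreER (the Atoh1 driver is active in granule neuron progenitors and CreER needs an inducer) or GFAP-cre (active in glia and in stem cells), so subtype and driver cannot be told apart. GFI-Ptch replicate 4 was labelled as having progressed from another tumour in an NSG female host. NSG mice lack mature lymphocytes and natural killer cells but keep macrophages and microglia.

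Microglia depend on signalling through Csf1r, which binds Csf1 and Il34, and settle near neurons that carry Cx3cl1, the ligand of Cx3cr1. P2ry12 senses ADP and steers their processes, and it is known to be lost when microglia become activated. Trem2 binds lipids and signals through Tyrobp (DAP12), whose phosphorylated tail recruits the kinase Syk. Ptprc (CD45) is a phosphatase of all white blood cells, Itgam (CD11b) pairs with Itgb2 to form complement receptor 3, and Aif1 (Iba1) binds calcium and actin. Tmem119 is a membrane protein used to tell microglia from blood-derived macrophages. Most of these genes are also active in other macrophages, so the set marks myeloid cells of the brain rather than microglia alone.

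The transcription factor PU.1, encoded by Spi1, drives the myeloid programme and recognises the purine-rich box GAGGAA. From the RefSeq promoter table (GRCm38.p6) 7 windows of 6 members were used. None was used for Csf1r, Tmem119 or Tyrobp, so the counts cover those 6 members only. The 250 bases before each start were searched on both strands for GAGGAA and for AGGAAGT, a longer core shared by ETS factors, with which it can overlap. GAGGAA lay in windows of 4 members (Ptprc, Itgam, Aif1 and Trem2) and in 23.3% of all 32851 windows. AGGAAGT lay in windows of 2 members (Ptprc and P2ry12) and in 7.69% of all windows. The counts are of members and the percentages are of windows. The sequences of Ptprc, Aif1 and Cx3cr1 are shown because these were the 3 members called between NG-Smo and NG-Ptch tumours. Capitals mark either motif or its reverse complement, and the windows run 5′ to 3′ on the strand of the gene at chr1:138175306-138175555 (minus), chr17:35176053-35176302 (minus) and chr9:120068297-120068546 (minus).
Ptprc: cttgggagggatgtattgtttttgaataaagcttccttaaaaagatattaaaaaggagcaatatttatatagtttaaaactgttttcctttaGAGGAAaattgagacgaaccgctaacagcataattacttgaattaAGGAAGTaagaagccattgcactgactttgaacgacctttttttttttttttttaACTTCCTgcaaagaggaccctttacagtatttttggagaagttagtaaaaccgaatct
Aif1: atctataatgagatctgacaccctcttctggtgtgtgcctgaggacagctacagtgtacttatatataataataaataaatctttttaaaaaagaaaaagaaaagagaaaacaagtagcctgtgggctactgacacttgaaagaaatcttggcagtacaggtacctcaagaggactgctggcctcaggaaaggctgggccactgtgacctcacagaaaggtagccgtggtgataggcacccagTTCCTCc
Cx3cr1: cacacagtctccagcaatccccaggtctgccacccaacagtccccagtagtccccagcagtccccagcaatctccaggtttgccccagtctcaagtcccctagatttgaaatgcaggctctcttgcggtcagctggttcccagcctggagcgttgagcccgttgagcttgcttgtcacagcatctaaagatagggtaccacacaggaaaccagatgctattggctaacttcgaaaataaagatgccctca
The Ptprc window shown holds the box once and the longer core on both strands. The Aif1 window holds the reverse complement of the box next to the start, and the Cx3cr1 window holds neither word. A further Ptprc window, at chr1:138175127-138175376 (minus), overlaps the one shown and holds 0 matches to the box. It has 1 match to the longer core, as its reverse complement, which both windows share. A match is a description of letters and not a bound site.

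All values are log2 levels as deposited. Since a probe set reads some signal without its transcript, the 1027 olfactory receptor genes served as a gauge of background, and 95% of them had a mean level under 6.98. By that limit Cx3cr1, Tmem119, Csf1r, Ptprc, Trem2 and Tyrobp were above background in 18 of 18 arrays, Itgam in 17, P2ry12 in 16 and Aif1 in 15. The tumours carried their tissue label, with the granule neuron progenitor genes Atoh1 at 11.78 to 12.81 and Barhl1 at 11.01 to 11.78 in all arrays. Of 13 arrays with a male or female label, 3 went against it by the mean level of Kdm5d, Uty and Eif2s3y, genes of the Y chromosome, namely GFD-Smo replicates 2 and 3 and GFI-Ptch replicate 4, and calls on the 9 genes that were lost without them are given below. GFI-Ptch replicate 4 also stood apart by muscle genes, with Myh3 above the background limit in this 1 array. By the Y-linked genes GFD-Ptch replicates 1 and 2, GFI-Ptch replicate 3, NG-Smo replicates 1 and 3 and GFD-Smo replicate 2 were male. No NG-Ptch array was, so the sexes were not balanced between groups, and the part of sex was not tested. Markers of other leukocytes and macrophages were mixed. Cd3g (5.55 to 6.22), Cd79a (5.85 to 6.41), Ms4a1 (5.42 to 5.84), Ccr2 (5.47 to 6.22), S100a8 (5.86 to 6.30) and Cd163 (6.02 to 6.35) stayed under the limit in all 18 arrays, while Cd3e (7.33 to 7.85) and Ms4a7 (7.87 to 9.93) were above it in all 18, Lyve1 in 17, Cd4 in 16, Flt3 in 13, Mrc1 in 12 and Cd8a in 5. In whole-tumour RNA fewer cells of a type and less RNA per cell cannot be told apart.

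Across the 5 groups, 7 of the 9 genes had their lowest mean in GFD-Ptch, namely Cx3cr1, P2ry12, Csf1r, Aif1, Itgam, Trem2 and Tyrobp. The mean over the 9 genes was 8.05 to 8.23 in GFD-Ptch, 8.25 to 8.66 in NG-Ptch, 8.21 to 8.75 in GFI-Ptch, 8.65 to 8.78 in GFD-Smo and 8.85 to 8.92 in NG-Smo. Neighbours in the order of group means mostly overlapped. Ranges were apart between GFI-Ptch and GFD-Smo for Cx3cr1 (9.84 against 9.85) and between GFD-Smo and NG-Smo for Aif1 (7.32 against 7.35). Between GFD-Ptch and NG-Ptch they were apart for P2ry12 (6.95 against 7.15) and Itgam (7.27 against 7.28). For Ptprc they were apart at every step except from GFI-Ptch to NG-Ptch. Those steps were narrow, at 7.62 against 7.67, 7.87 against 7.88 and 8.30 against 8.36. No other neighbours were apart, and GFD-Ptch had only 2 arrays. Tmem119 was the flattest, with a range of 0.45 over 18 arrays (7.68 to 8.13), against 1.44 for Cx3cr1, 1.55 for Ptprc, 1.65 for Csf1r and 1.70 for Tyrobp.

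**Figure D1:**
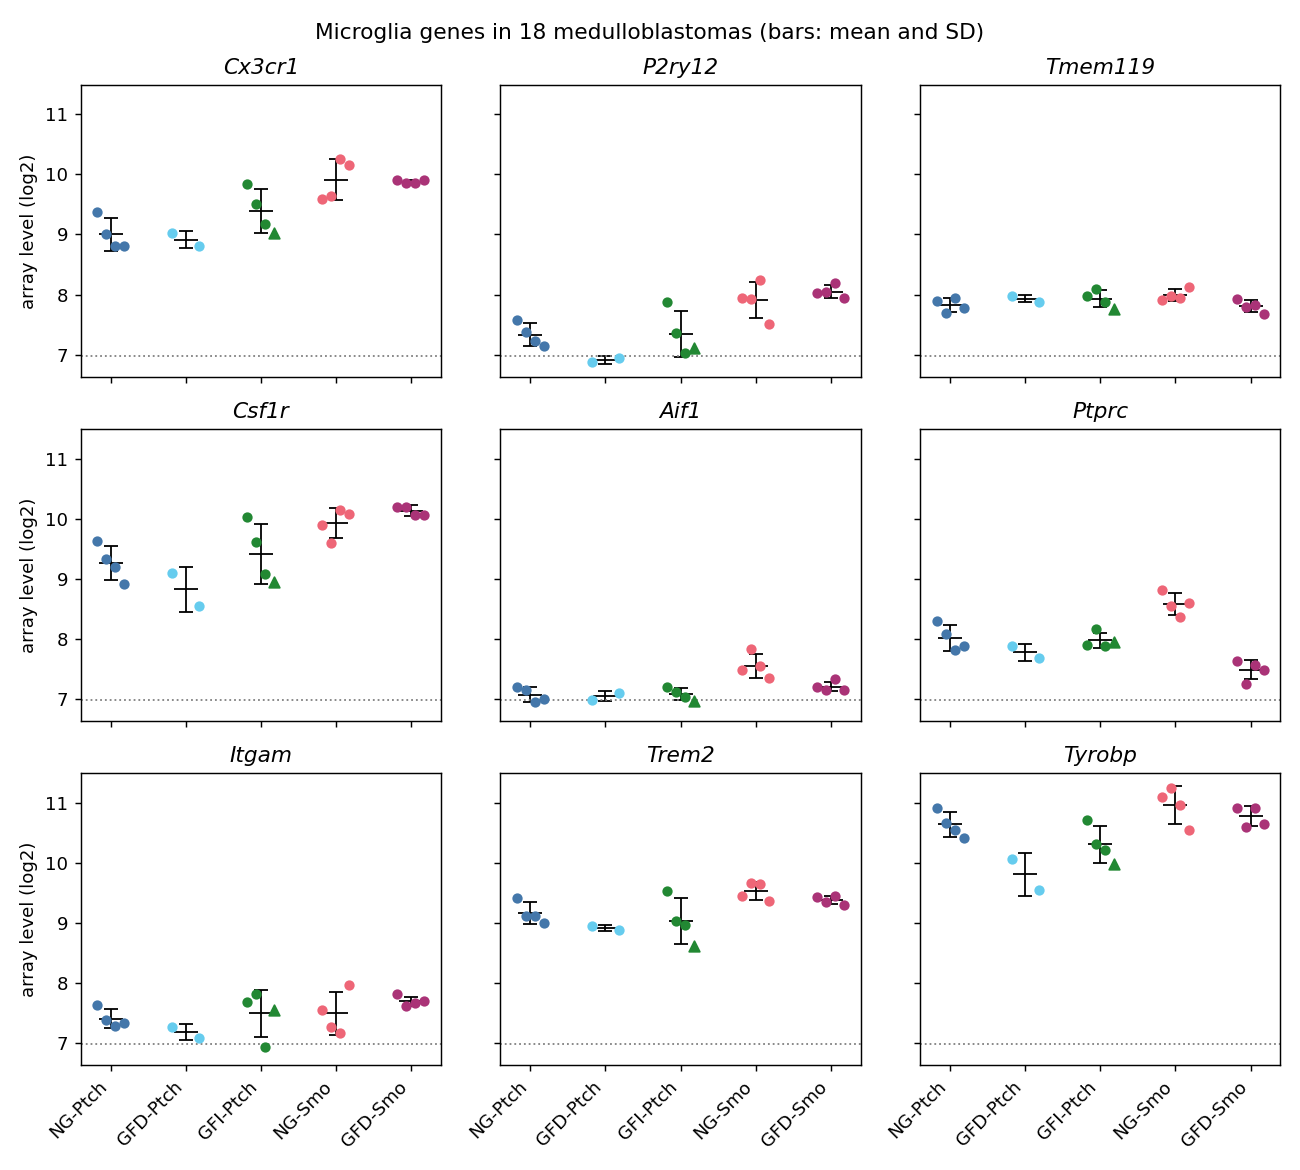
Array level (log2, vertical axis) of each of the 9 genes by tumour group (horizontal axis), with a point per array, a triangle for GFI-Ptch replicate 4, black bars for mean and SD, and a dotted line at the background limit of 6.98. Ptprc stood lowest in GFD-Smo (7.25 to 7.62) and highest in NG-Smo (8.36 to 8.81), whereas Cx3cr1 was high in both Smo groups.

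The Smo tumours were compared first. Ptprc read 8.81, 8.55, 8.36 and 8.60 in NG-Smo replicates 1 to 4 and 7.62, 7.25, 7.56 and 7.47 in GFD-Smo replicates 1 to 4. Every GFD-Smo array lay below every NG-Smo array. Ptprc fell by 1.10 on the log2 scale in GFD-Smo (SE 0.12, 95% interval -1.35 to -0.85), a 2.15-fold difference (limma over all genes, adjusted p = 5.50e-05). It was lower by 1.03 to 1.18 with each array left out in turn, and stood at -1.03 (adjusted p = 0.00284) without the 3 arrays that went against their gender label. Aif1 read 7.48, 7.83, 7.55 and 7.35 in NG-Smo and 7.19, 7.15, 7.32 and 7.14 in GFD-Smo, again without overlap. Its change was -0.35 (SE 0.09, adjusted p = 0.0309 by limma). The call on Aif1 was lost without NG-Smo replicate 2 (adjusted p = 0.0695) or 3 (0.0636), without GFD-Smo replicate 1 (0.0782), 2 (0.0946) or 4 (0.0848), and without the 3 arrays against their gender label (-0.39, 0.116). These 2 were the members called, both lower, where 5.31% of all genes were called and 2.49% were called lower. They were also the 2 members without overlap, where 12.6% of all genes did not overlap and 6.59% were lower without overlap.

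The other 7 genes did not pass the test between GFD-Smo and NG-Smo, and 6 of them had intervals that include 0. Cx3cr1 read 9.59, 9.64, 10.25 and 10.16 in NG-Smo and 9.90, 9.85, 9.86 and 9.91 in GFD-Smo, so that the GFD-Smo arrays lay inside the NG-Smo range. Its difference was -0.03 (95% interval -0.41 to 0.36). Csf1r differed by 0.20 (-0.25 to 0.65), P2ry12 by 0.14 (-0.22 to 0.50), Itgam by 0.20 (-0.18 to 0.58), Trem2 by -0.15 (-0.46 to 0.16) and Tyrobp by -0.19 (-0.56 to 0.18). Tmem119 differed by -0.18 (-0.35 to -0.01, adjusted p = 0.265). None of these 7 intervals reaches the size of the Ptprc change. The median change of the 9 genes was -0.15, beside -0.01 over all genes.

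**Figure D2:**
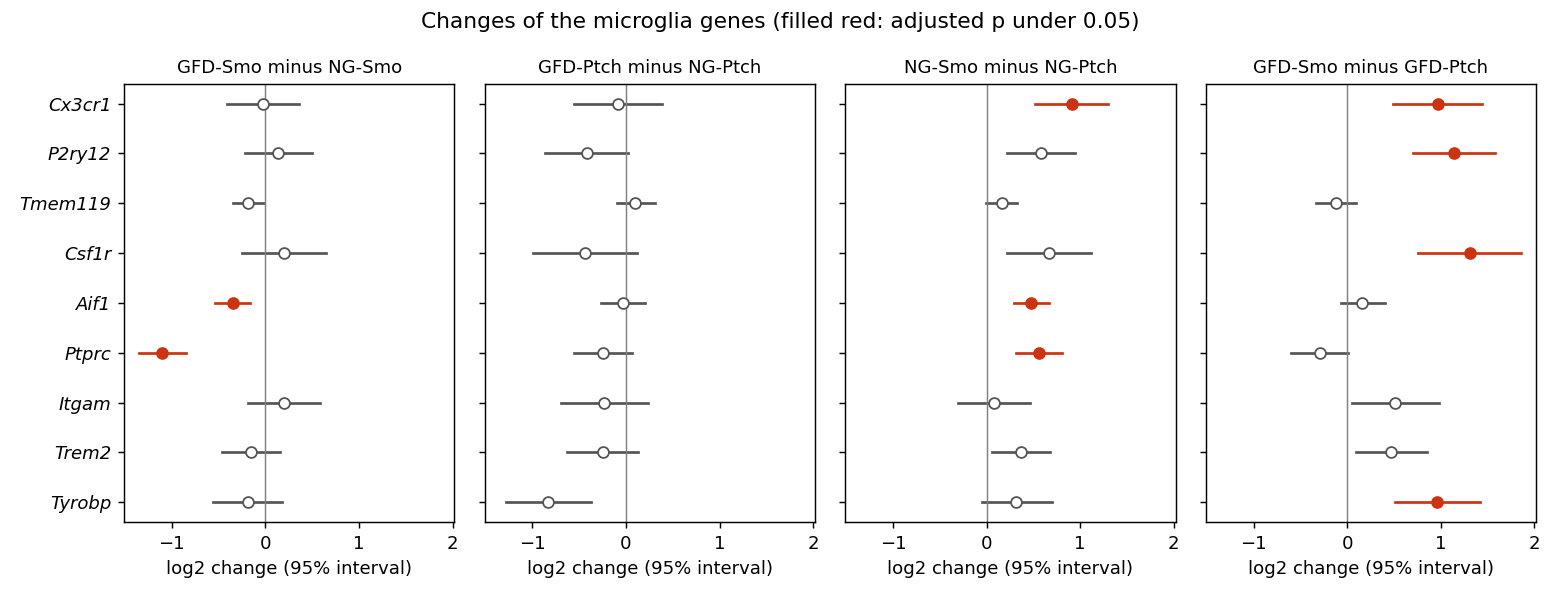
Log2 change (horizontal axis) of each of the 9 genes (rows) in 4 comparisons (panels), with lines for the 95% interval and filled red points for an adjusted p under 0.05. Ptprc and Aif1 were lower in GFD-Smo than in NG-Smo, and Cx3cr1 was called higher in Smo than in Ptch tumours of both subtypes (0.91 and 0.97).

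Genes that work with these receptors were read from lists by role. Of 10 partner and signalling genes 4 were called lower in GFD-Smo and 0 higher. Syk, the kinase recruited by Tyrobp, was at 7.21 ± 0.06 in GFD-Smo and 7.75 ± 0.10 in NG-Smo (SD, n = 4 each), a change of -0.54 (adjusted p = 5.39e-05 by limma). The exchange factor Vav1 fell by 0.53, and Itgb2, the partner of Itgam, fell by 0.71 (adjusted p = 0.00902), whereas Itgam itself was not called. The phosphatase Ptpn6 fell by 0.24, but its call was lost without NG-Smo replicate 1 (adjusted p = 0.0854) or 4 (0.0777) or GFD-Smo replicate 2 (0.11), 3 (0.0827) or 4 (0.0552). Of 7 measured transcription factors Irf8, which myeloid cells need, was the 1 called, at 8.64 ± 0.07 against 9.18 ± 0.18 (change -0.54, adjusted p = 0.0103). Spi1 was at 8.10 ± 0.08 against 8.56 ± 0.23 (change -0.46, adjusted p = 0.0805) and was not called. Of 8 ligands and maintenance factors 0 were called, and Cx3cl1 differed by 0.07, Csf1 by 0.19 and Il34 by -0.08. Without the 3 arrays against their gender label Itgb2 (adjusted p = 0.109), Irf8 (0.104) and Ptpn6 (0.224) lost their calls.

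Genes of other microglial states moved unequally in the same comparison. Of 18 other homeostatic microglia genes 2 were called higher in GFD-Smo and 0 lower. Crybb1 rose by 0.43 (8.94 ± 0.03 against 8.50 ± 0.16, adjusted p = 0.00995). Gpr34 rose by 0.36 but lay under the background limit in both groups, at 6.17 ± 0.10 and 5.81 ± 0.11. Its call was lost without NG-Smo replicate 1 (0.0512) or GFD-Smo replicate 1 (0.0542) or 3 (0.0701). Of 13 genes of disease-associated microglia 3 were called lower and 0 higher. These were the glycoprotein Gpnmb at 9.07 ± 0.43 against 10.92 ± 0.54 (change -1.85, adjusted p = 0.00872), the beta-glucan receptor Clec7a at -1.40 and the galectin Lgals3 at -1.10. Of 10 markers of border and tissue macrophages 2 were called lower. Ms4a7 fell by 1.48 (8.07 ± 0.20 against 9.55 ± 0.35, adjusted p = 6.88e-04), and Stab1 fell by 0.74, with its call lost without NG-Smo replicate 3 (0.0693) or GFD-Smo replicate 1 (0.0587), 2 (0.0574) or 3 (0.0761). Crybb1 (0.0621), Gpr34 (0.0998), Clec7a (0.0667) and Stab1 (0.0738) were not called without the 3 arrays against their gender label.

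**Figure D3:**
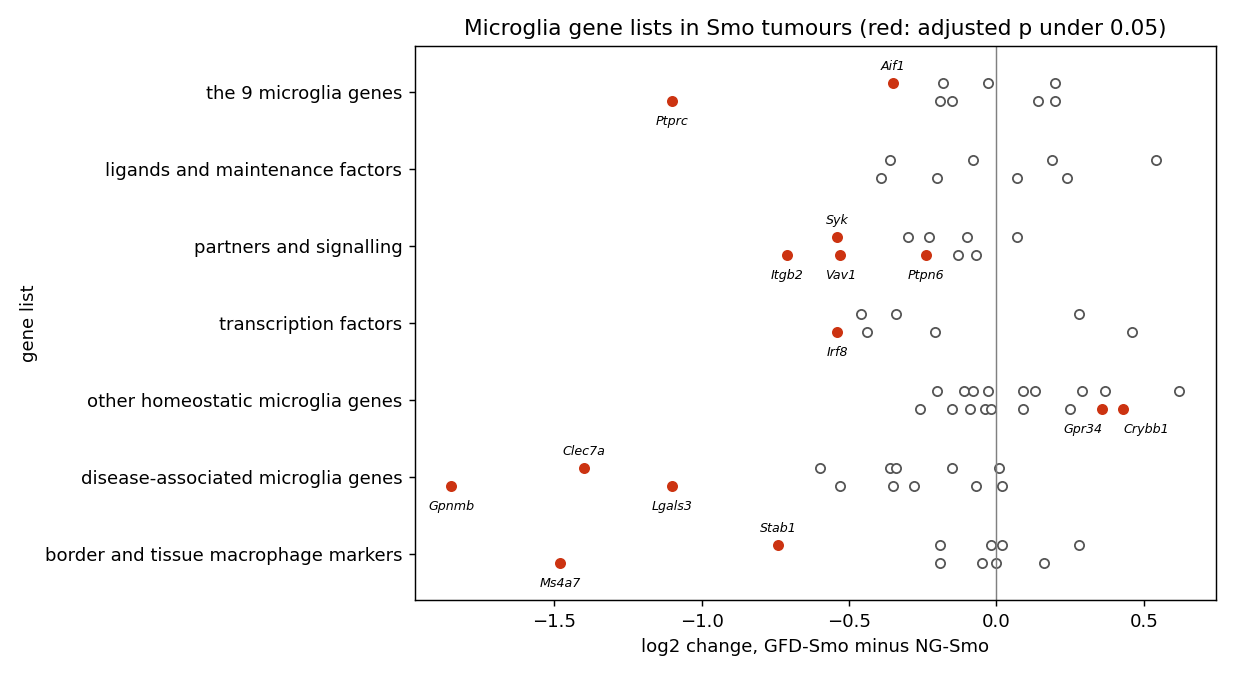
Log2 change from NG-Smo to GFD-Smo (horizontal axis) of every measured gene of 7 lists (rows), with a point per gene and red for an adjusted p under 0.05. Among the 9 microglia genes Ptprc at -1.10 stood apart from the rest, which lay between -0.35 and 0.20.

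Other cell types differed between the Smo groups too. The mean level of 8 astrocyte markers was 11.38 to 11.49 in GFD-Smo and 9.71 to 10.22 in NG-Smo, and 5 of the 8 were called higher, Aldh1l1 among them, which was not called without the 3 arrays against their gender label (0.0753), where another marker was and the count stayed at 5. The mean of 7 fibroblast and pericyte markers was 8.93 to 9.30 against 8.47 to 8.82, with 7 of 7 above 0 and 4 called higher (Col1a1, Col1a2, Col3a1 and Pdgfrb), or 2 with only the groups compared. The mean of 6 endothelial markers was 8.52 to 8.85 against 8.06 to 8.74, with 6 of 6 above 0 and Kdr called, though not without those 3 arrays (0.076). The mean of 10 border and tissue macrophage markers was 7.03 to 7.26 in GFD-Smo and 7.24 to 7.43 in NG-Smo. For 12 lymphocyte markers, of cells that also carry Ptprc, the mean was 6.35 to 6.45 in GFD-Smo and 6.44 to 6.64 in NG-Smo, with 0 called, and only 3 of the 12 averaged above the background limit. The mean of 10 monocyte and neutrophil markers was 6.44 to 6.49 against 6.6 to 6.68, with 2 of the 10 above the limit and 1 called lower. That gene, Retnlg, lay under the limit at 5.93 ± 0.05 and 6.21 ± 0.12, and its call was kept in 7 of 18 fits that left out 1 array and lost without the 3 arrays against their gender label (adjusted p = 0.129). The part of these cells in the differences of Ptprc and Aif1 was not tested.

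The same subtype was then compared between the models, first NG-Smo with NG-Ptch (n = 4 each). All 9 genes had a higher mean in NG-Smo, with a median change of 0.48 beside 0.01 over all genes. Of the 9, 3 were called higher and 0 lower, where 1.04% of all genes were called and 0.607% were called higher. Cx3cr1 read 9.38, 9.0, 8.80 and 8.80 in NG-Ptch replicates 1, 2, 4 and 5, all below the 9.59 to 10.25 of NG-Smo. It rose by 0.91 (SE 0.18, adjusted p = 0.0278 by limma), or 1.88-fold. Ptprc read 8.30, 8.08, 7.81 and 7.87 in NG-Ptch, below all NG-Smo arrays, and rose by 0.56 (SE 0.12, adjusted p = 0.0357). Aif1 read 7.20, 7.14, 6.94 and 7.0 in NG-Ptch, close to the background limit, and rose by 0.48 (SE 0.09, adjusted p = 0.020). These 3 were also the members higher without overlap, where 5.65% of all genes did not overlap and 2.97% were higher without overlap.

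With each array left out in turn Cx3cr1 was higher by 0.80 to 1.04, Ptprc by 0.49 to 0.66 and Aif1 by 0.39 to 0.55, but single arrays ended each of the 3 calls. Cx3cr1 was not called without NG-Ptch replicate 2 (adjusted p = 0.0834), 4 (0.0874) or 5 (0.0968) or NG-Smo replicate 3 (0.0839). Aif1 was not called without NG-Ptch replicate 4 (0.0686) or 5 (0.0725) or NG-Smo replicate 3 (0.0524). Ptprc was not called without NG-Ptch replicate 2 (0.0834), 4 (0.109) or 5 (0.122), NG-Smo replicate 1 (0.0824) or 2 (0.0668), or GFD-Smo replicate 3 (0.0523) or 4 (0.0523). With only these 2 groups in the fit, 0 of the 9 were called (adjusted p = 0.12 for Cx3cr1, 0.139 for Aif1 and 0.146 for Ptprc).

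Of the members not called in that comparison, Csf1r differed by 0.67 (95% interval 0.22 to 1.12, adjusted p = 0.191) and P2ry12 by 0.58 (0.22 to 0.94, adjusted p = 0.146). P2ry12 read 7.58, 7.38, 7.22 and 7.15 in NG-Ptch and 7.95, 7.93, 8.24 and 7.51 in NG-Smo, with replicate 4 of NG-Smo inside the NG-Ptch range. Without that array P2ry12 was called, at 0.71 (adjusted p = 0.0414). Trem2 differed by 0.37 (0.06 to 0.68), Tyrobp by 0.32 (-0.05 to 0.70), Tmem119 by 0.16 (-0.0047 to 0.33) and Itgam by 0.08 (-0.30 to 0.46). Among the other lists, Syk rose by 0.47 (7.75 ± 0.10 in NG-Smo against 7.28 ± 0.06, adjusted p = 0.00111) and was the 1 partner gene of 10 called. The 1 of 18 homeostatic genes called was P2ry13, a nucleotide receptor of the same family as P2ry12, at 0.91 (adjusted p = 0.0495), and its call held in 5 of 18 fits that left out 1 array and was lost without the 3 arrays against their gender label (0.0581). Of the ligands and of the transcription factors 0 were called. The astrocyte markers averaged 9.71 to 10.22 in NG-Smo and 9.96 to 10.03 in NG-Ptch, with 0 of 8 called. Markers of some other cells shifted, with 0 called. Above 0 were 6 of 6 endothelial markers (median 0.29) and 6 of 7 oligodendrocyte markers (median 0.42). Of 10 granule neuron progenitor markers 9 were below 0 (median -0.24). Fibroblast and pericyte markers were mixed, with 4 above 0 and 3 below. The part of these cells in the differences of the 9 genes was not tested.

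Between GFD-Smo (n = 4) and GFD-Ptch (n = 2), 4 of the 9 genes were called higher in GFD-Smo and 0 lower. The background was high, since 15.6% of all genes were called in this comparison and 8.50% were called higher. Csf1r read 9.09 and 8.55 in GFD-Ptch replicates 1 and 2 and 10.20, 10.20, 10.06 and 10.06 in GFD-Smo. It rose by 1.31 (SE 0.26, adjusted p = 0.00359 by limma), or 2.48-fold. P2ry12 read 6.87 and 6.95 in GFD-Ptch, under the background limit, and 8.02, 8.04, 8.20 and 7.95 in GFD-Smo, and rose by 1.14 (SE 0.21, adjusted p = 0.00188). Cx3cr1 read 9.02 and 8.81 in GFD-Ptch and rose by 0.97 (SE 0.22, adjusted p = 0.00912). Tyrobp read 10.07 and 9.55 against 10.92, 10.60, 10.92 and 10.65, and rose by 0.96 (SE 0.21, adjusted p = 0.0073).

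With GFD-Ptch replicate 2 left out, so that replicate 1 alone stood for its group and was assumed to vary like the others, P2ry12 was the 1 member still called. Cx3cr1 then stood at 0.86 (adjusted p = 0.12), Csf1r at 1.04 (0.0908) and Tyrobp at 0.71 (0.162). Trem2 differed by 0.47 (95% interval 0.09 to 0.85, adjusted p = 0.0852) and was called without GFI-Ptch replicate 1 (0.0261) or 4 (0.0348). Itgam differed by 0.51 (adjusted p = 0.118) and Aif1 by 0.16. With only the groups compared Itgam (0.00375) and Trem2 (0.00227) were called, as they were with array weights (0.0457 and 0.0204). Calls over all 19938 genes rose too, to 6709 with only the groups compared and 5906 with array weights, against 3110 in the main fit. Cx3cr1 was not called with the gender label in the model (0.70, adjusted p = 0.0525). Ptprc went the other way, at 7.87 and 7.67 in GFD-Ptch and 7.25 to 7.62 in GFD-Smo, a difference of -0.29 (95% interval -0.60 to 0.01, adjusted p = 0.165). In all, 7 genes were higher and 1 lower in GFD-Smo without overlap, where 57.1% of all genes did not overlap, 23.4% higher and 33.7% lower.

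Of the 8 ligands and maintenance factors 3 were called higher in GFD-Smo than in GFD-Ptch. Gas6, a bridge between dying cells and phagocyte receptors, was at 9.97 ± 0.22 against 8.28 ± 0.01 (SD over 4 and 2 arrays), a change of 1.69 with an adjusted p of 3.63e-04. Pros1, of the same kind, rose by 1.06 and lost its call without GFD-Ptch replicate 2 (0.148). Csf1 rose by 0.49 (8.41 ± 0.07 against 7.91 ± 0.07, adjusted p = 0.032) and lost its call without either GFD-Ptch array (0.143 and 0.137) or any one GFD-Smo array (0.0508 to 0.0683), and without the 3 arrays against their gender label (0.0763). Of 18 homeostatic genes 6 were called higher and 1 lower. Those counts were 2 and 0 without GFD-Ptch replicate 2, 4 and 0 without GFD-Ptch replicate 1, 4 and 0 without the 3 arrays against their gender label, 3 and 0 with the gender label in the model, and 11 and 1 with only the groups compared. Over all genes 6709 were called with only the groups compared, against 3110 in the main fit. P2ry13 rose by 1.56 (9.77 ± 0.11 against 8.22 ± 0.34, adjusted p = 8.68e-04). The Fc receptor-like gene Fcrls rose by 1.95 (adjusted p = 0.0031), and was not called without GFD-Ptch replicate 2 (0.107). The astrocyte markers, at 11.38 to 11.49 in GFD-Smo and 8.88 to 9.11 in GFD-Ptch, differed by a median of 2.67, with 7 of 8 called. All 7 oligodendrocyte markers were above 0 too, with a median of 0.64 and 1 called. The part of these cells in the differences was not tested. Other myeloid lists were mixed. Of 10 partner and signalling genes 0 were called, with 5 above 0 and 5 below, and the same held for 10 border and tissue macrophage markers. Of 13 disease-associated genes 2 were called higher and 1 lower. Of 7 transcription factors 1 was called higher, with 6 above 0.

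Within Ptch tumours none of the 9 genes was called between subtypes. Between GFD-Ptch and NG-Ptch, 8 of the 9 differences were below 0, with a median of -0.24 beside 0.04 over all genes. By limma 0 of the 9 and 0.0100% of all genes were called, and 1 of the 9 had an unadjusted p under 0.05. With array weights 1 of the 9 was called, where 565 of all 19938 genes were called, against 2 in the main fit. That gene was Tyrobp, at 10.91, 10.67, 10.55 and 10.42 in NG-Ptch and 10.07 and 9.55 in GFD-Ptch, a difference of -0.83 (95% interval -1.28 to -0.37, adjusted p = 0.139). With array weights it stood at -0.90 (adjusted p = 0.0269), and with each array left out in turn at -1.09 to -0.57. It was called as well without both arrays that stood apart, GFI-Ptch replicate 4 and NG-Smo replicate 4 (0.0273), where 689 genes were called. That pair of arrays was picked after seeing the data, and no measure is given here for NG-Smo replicate 4. Csf1r differed by -0.44 (adjusted p = 0.381) and P2ry12 by -0.42 (0.306). In 4 genes (P2ry12, Itgam, Trem2 and Tyrobp) both GFD-Ptch arrays lay below all NG-Ptch arrays, where 34.6% of all genes did not overlap and 14.0% were lower without overlap. None of the other microglia lists had a called gene here, though single genes were called with array weights, with only the groups compared or without both arrays that stood apart. The largest differences among them were those of Fcrls at -1.48 (adjusted p = 0.136) and Gpnmb at -1.12 (0.261). The astrocyte markers differed by a median of -0.90, with all 8 below 0 and 0 called, and both GFD-Ptch tumours were male by Y-linked genes while the NG-Ptch tumours were not.

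GFI-Ptch and NG-Ptch tumours had overlapping values for all 9 genes, where 4.86% of all genes did not overlap. By limma 0 of the 9 and 0 of 19938 genes were called, and 1 of the 9 had an unadjusted p under 0.05. Cx3cr1, that gene, read 9.84, 9.51, 9.18 and 9.02 in GFI-Ptch and differed by 0.39 (95% interval 0.0039 to 0.78, adjusted p = 0.581). The median difference was 0.01 beside 0.02 over all genes. The spread within GFI-Ptch was wide, with an SD of 0.50 for Csf1r, 0.38 for P2ry12 and 0.38 for Trem2. Csf1r read 10.03, 9.61, 9.07 and 8.94 in replicates 1 to 4, and Trem2 9.53, 9.03, 8.96 and 8.61. Replicate 1 was thus the highest for both, and replicate 4, the transplanted tumour, the lowest. The Trem2 level of replicate 4 was the lowest of all 18 arrays.

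Against GFD-Ptch the GFI-Ptch tumours had 8 of 9 differences above 0, with a median of 0.31 beside -0.02 over all genes. None was called (0 of 9 by limma, and 0.00502% of all genes), and 2 had an unadjusted p under 0.05. These were Csf1r at 0.59 (adjusted p = 0.476) and Tyrobp at 0.49 (0.468). Cx3cr1, P2ry12 and Ptprc were higher in GFI-Ptch without overlap, where 16.5% of all genes did not overlap and 6.98% were higher without overlap. The 3 Ptch comparisons share arrays and are therefore not independent of each other. The other microglia lists had 0 called genes in either GFI comparison, and the largest differences among them were those of Gpnmb at -0.80 against NG-Ptch and Cst7 at 1.11 against GFD-Ptch.

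The step from NG to GFD was then compared between the models, which tests whether it differs in Smo and Ptch tumours. Ptprc was the 1 member called, lower by 0.86 in the Smo step (SE 0.19, adjusted p = 0.0191 by limma), where 3.81% of all genes were called and 1.40% were called lower. Its own step was -1.10 in Smo tumours and -0.24 in Ptch tumours. The call was lost without GFD-Ptch replicate 1 (-0.76, adjusted p = 0.0926) or 2 (-0.96, 0.0515), with the gender label in the model (-0.66, 0.13) and without the 3 arrays against their gender label (-0.79, 0.0727). For Tyrobp the difference of steps was 0.64 (95% interval 0.05 to 1.23, adjusted p = 0.212), for Csf1r 0.64 (adjusted p = 0.296) and for P2ry12 0.56 (0.252). Among the partner genes Syk was called too, at -0.40 (adjusted p = 0.024), and lost its call without GFD-Ptch replicate 1 (0.0501) or 2 (0.146) or GFD-Smo replicate 2 (0.0511). The 3 arrays against their gender label, left out together, ended it too (0.0837). Quantile normalization (0.135) and median centring (0.085) ended the call on Syk as well. The ligands, transcription factors and the other microglia lists had 0 called genes in this comparison, with 0 to 2 homeostatic genes and 0 to 2 ligands under other settings. Of 8 astrocyte markers 7 were called, but 1 without GFD-Ptch replicate 2 or with the gender label in the model, and 3 without GFD-Ptch replicate 1.

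How the 9 genes went together from tumour to tumour was described by the correlation of their deviations from the group means over the 18 arrays, as a likeness with no test. All genes of an array share its RNA and its scaling. Of the 36 pairs 34 had a correlation above 0, with a median of 0.428. The closest pair was Csf1r and Cx3cr1 (Pearson r = 0.883), followed by Trem2 with P2ry12 (0.83) and Trem2 with its adaptor Tyrobp (0.814). Ptprc and Itgam were closest to each other (0.561), and Ptprc had a median correlation of 0.221 with the other 8. For Aif1 that median was 0.189, and for Trem2 it was 0.671. Both rested on a few arrays: without the 2 arrays farthest from its own median, Aif1 (NG-Smo replicates 2 and 4 left out) had a median of 0.561 and Trem2 (GFI-Ptch replicates 1 and 4 left out) 0.407. Ptprc stood at 0.189 when treated the same way. The 10 genes outside the set that were most like the mean of the 9 were C1qa (r = 0.942 over 18 arrays), Ctss, Cst7, C1qb, Cyth4, Mpeg1, Lpcat2, Cpq, Laptm4a and Prkar1a (0.885). C1qa and C1qb encode chains of complement C1q, Ctss is a lysosomal protease and Mpeg1 a pore-forming protein of macrophages. Without GFI-Ptch replicate 4 and NG-Smo replicate 4 the correlation of C1qa was 0.93 and that of Mpeg1 0.934.

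**Figure D4:**
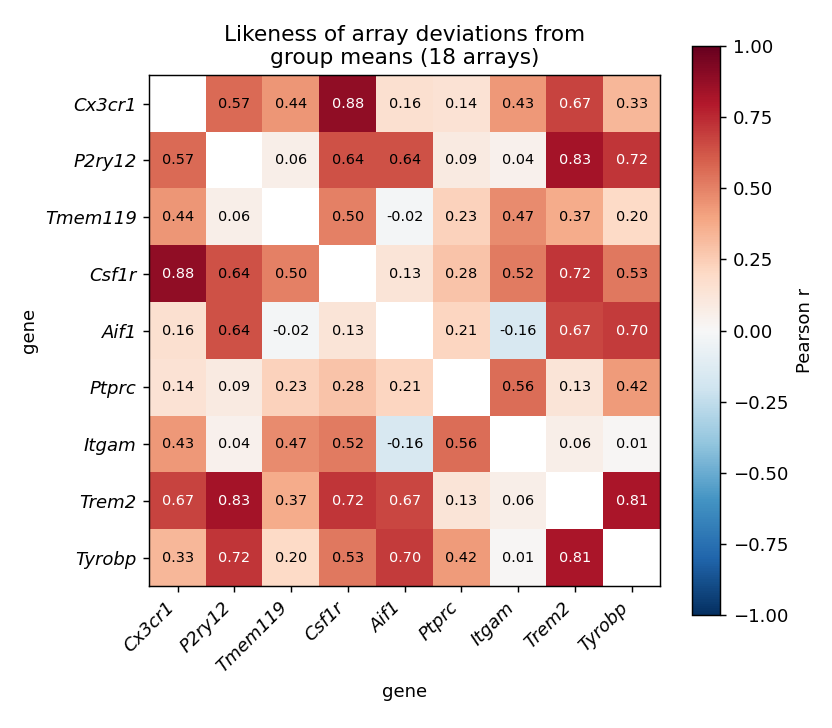
Pearson correlation (colour and number) between each pair of the 9 genes (rows and columns), computed over 18 arrays from deviations from group means. Csf1r with Cx3cr1 (0.883) and Trem2 with P2ry12 (0.83) were the closest pairs, while Ptprc was closest to Itgam (0.561).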

How the data were processed

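RNA of 18 mouse tumours was measured on 18 arrays, and the authors deposited 1 log2 value per probe set and array. Partek 6.6 is named per the submitters' processing notes. Background correction, probe summary, scaling between arrays and genome build are not given in the sources used here, so log2 was read from the values (4.219 to 14.32, array medians 7.736 to 7.868).

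Of 35556 probe sets 21789 had 1 gene symbol in the platform annotation, 1621 had several and 12146 were not listed. The probe set with the highest mean stood for a gene, which left 19938 genes. With limma 3.58.1 in R 4.3.3, 5 group means were fitted over all 18 arrays, and p-values were adjusted by Benjamini-Hochberg over all genes in each of 7 comparisons, with a threshold of 0.05 and 95% intervals. Nothing says whether arrays of a group come from separate litters, so p-values measure the spread between these tumours. The number of arrays limits the precision. The script was tested on simulated data.

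The members and lists were chosen with earlier results of these data known. Text names all 9 members and from each other list at most 4 called genes, or 2 where none was called, by size of change, besides markers at background and the 10 genes most like the members. Genes named beyond that for their role (Spi1, Cx3cl1, Csf1, Il34, Cd3e, Lyve1, Cd4, Cd8a, Flt3, Mrc1, Atoh1, Barhl1 and Myh3) were chosen after their values were seen. Alternatives were quantile normalization, median centring, a filter on dim genes (10635 kept), only the groups compared, a replicate block, array weights, gender as a covariate, the mean of probe sets, a trended robust fit and each array left out. Leaving out both arrays that stood apart, or the 3 against their gender label, was added after seeing the data. The gender covariate took the labels as given, with arrays of no label as a level of their own. These were NG-Ptch replicates 2, 4 and 5, NG-Smo replicate 3 and GFD-Smo replicate 4. The covariate thus partly follows the NG-Ptch group and is no clean adjustment for sex.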

Additional observations from a re-analysis of the deposited data

Results flagged for a closer look

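The difference of Ptprc between GFD and NG tumours was not the same in Smo and Ptch tumours by the test of the difference itself, at -0.86 on the log2 scale (adjusted p = 0.0191 by limma over all genes). Ptprc was lower in GFD than in NG by 1.10 in Smo tumours and by 0.24 in Ptch tumours. The call was lost without GFD-Ptch replicate 1 (-0.76, adjusted p = 0.0926) or 2 (-0.96, 0.0515) and without the 3 arrays against their gender label (-0.79, 0.0727). Dixon's test was run on 36 sets of 4 arrays, 1 for each gene and each group of 4 arrays. No array stood far from the other 3, where about 5% of such sets are flagged by chance. GFD-Ptch, with 2 arrays, was not among these sets, so the test says nothing on its arrays.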

How the results depend on the processing

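Between GFD-Smo and NG-Smo, where 2 members were called, 1 was called under quantile normalization, median centring, the filter on dim genes, with only the groups compared, and without the arrays against their gender label. That 1 was Ptprc. The filter removed Aif1, and with it P2ry12, Tmem119 and Itgam, so these genes were not tested under that setting in any comparison. Between NG-Smo and NG-Ptch, where 3 were called, 0 were called with only the groups compared and 1 with gender as a covariate. The gender labels entered as given, and NG-Ptch replicates 2, 4 and 5 had none, so this fit does not isolate sex. For the difference between the models, where 1 was called, 0 were called with gender as a covariate or without the arrays against their label. Between GFD-Ptch and NG-Ptch, where 0 were called, 1 was called with array weights and 1 without both arrays that stood apart. Over all genes 565 and 689 were called in those fits, against 2 in the main fit. With each array left out in turn, 1 to 2 members were called between GFD-Smo and NG-Smo, 0 to 4 between NG-Smo and NG-Ptch, 1 to 5 between GFD-Smo and GFD-Ptch, 0 to 1 for the difference between the models, and 0 in each of the 3 Ptch comparisons. The cause of these changes was not tested.

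Groups share replicate numbers in the labels, but arrays of the same number did not deviate together: over 29 such pairs the correlation ran from -0.31 to 0.187, with a median of -0.03 and 4 pairs over 0.1. With the replicate number as a block 0 members were called between NG-Smo and NG-Ptch, against 3 without it, and 0 for the difference between the models, against 1, while 2 were called between GFD-Smo and NG-Smo and 5 between GFD-Smo and GFD-Ptch.

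The differences that changed sign were small and not called on either side. Cx3cr1 between GFD-Ptch and NG-Ptch stood at 0.23 with gender as a covariate, and at -0.18 to 0.04 with each array left out, where Aif1 stood at -0.09 to 0.02. Between GFI-Ptch and NG-Ptch, P2ry12 stood at -0.03 under quantile normalization and median centring, -0.07 with the replicate block and -0.01 with array weights. Aif1 there stood at -0.04 under quantile normalization, -0.03 under median centring and with gender, -0.02 with the replicate block and -0.0035 with array weights, Itgam at -0.02 with gender, and Trem2 at 0.01 without both arrays that stood apart or those against their label. With each array left out in that comparison P2ry12 ran from -0.16 to 0.12, Csf1r from -0.06 to 0.31, Aif1 from -0.03 to 0.05, Ptprc from -0.11 to 0.05, Itgam from -0.02 to 0.27 and Trem2 from -0.29 to 0.01. Between GFI-Ptch and GFD-Ptch, Tmem119 stood at 0.0041 under quantile normalization, 0.0013 under median centring, 0.01 with the replicate block, 0.08 with array weights and 0.05 without both arrays that stood apart or those against their label. With each array left out Tmem119 ran from -0.06 to 0.05, Aif1 from -0.01 to 0.10 and Trem2 from -0.04 to 0.26. Between GFD-Smo and NG-Smo, Cx3cr1 stood at 0.02 with array weights and 0.06 without both arrays that stood apart, and ran from -0.13 to 0.08 with each array left out. Between NG-Smo and NG-Ptch, Itgam stood at -0.07 with array weights, -0.01 with gender and -0.08 without both arrays that stood apart, and ran from -0.08 to 0.19. For the difference between the models Cx3cr1 stood at -0.26 and Trem2 at -0.02 with gender, and Cx3cr1 ran from -0.07 to 0.17.

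The 2 GFD-Ptch arrays limit every comparison with that group. P2ry12, Aif1 and Itgam lay near the background limit in some arrays, where a change can be understated, which was not tested.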
